A study of Mus musculus with 17 samples.

Results

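Cluster 9 is a group of B cell-like cells among the 9 clusters that the study made from dissociated mouse brain, and the study itself gave it no cell type. Its members are the cells behind 2 of 18 deposited columns of cluster means, 1 from the 6-OHDA library and 1 from the library of 6-OHDA+NDST3. The low values of those columns gave 38 cells in the first library and 521 in the second, 559 of the 14000 cells recovered in all, and 26624 genes were examined in each. The study's methods give a larger number of cells after filtering and mention no subsampling, so the columns may not cover every cell of the libraries. Both libraries came from wild-type ICR mice, 8 weeks old, whose substantia nigra was injected with 6-OHDA, a toxin taken up by catecholamine neurons. In the NDST3-treated PD model, an AAV that carries human NDST3 under the ubiquitous CMV promoter was injected 5 days later. Per the study's methods the comparison group received saline and not a vector. Effects of the vector and of NDST3 thus cannot be told apart in these 2 libraries. Each group is 1 library, the number of mice pooled in it is not given in the sources used here, and a sham library of the same assay was not analysed here. No test between the groups is possible, so all differences below are between 2 libraries. Bulk RNA-seq libraries (2 sham, 1 6-OHDA, 2 6-OHDA+NDST3) are used once, at the end.

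A B cell carries a membrane immunoglobulin made of heavy and light chains, which signals through CD79A and CD79B. It takes up the antigen it binds and shows peptides of it to T cells on MHC class II molecules. In a healthy brain such cells lie mainly in the meninges and the blood, and few are found in the tissue.

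A level here is the mean over a cluster's cells of the natural log of 1 plus the UMIs per 10000, where a UMI marks 1 captured RNA molecule. A difference is the NDST3-treated level minus the 6-OHDA level on that scale, and is not a fold change. A gene was taken as detected above 0.1.

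All 12 B cell markers were detected in cluster 9, and the mean of both libraries was higher there than in each of the other 8 clusters for all 12. Of the 6023 genes with a mean above 0.1 in cluster 9, 18.5% were highest in it. The clusters were formed from these same genes, so this describes the cluster and tests nothing. Igkc, the constant part of the kappa light chain, stood at 4.31 in the 6-OHDA library and 3.94 in the NDST3-treated library, and the highest mean of another cluster was 0.134. Cd79a stood at 3.23 and 3.03, and the coreceptor Cd79b at 2.05 and 1.44. Ighm, the heavy chain of IgM, stood at 2.92 and 2.45. These 4 genes encode parts of the antigen receptor. Each was lower in the NDST3-treated library, as were 56.7% of the 6632 genes above 0.1 in either library. Ighd, another heavy chain gene of that receptor, was higher.

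Ms4a1, which encodes the surface protein CD20, stood at 1.91 and 1.63, and Bank1, an adaptor of receptor signalling, at 2.33 and 2.68. Pax5, the transcription factor that holds B cell identity, stood at 1.55 and 1.49, and its highest mean in another cluster was 0.0129. Ighd, the heavy chain of IgD on naive mature cells, stood at 0.90 and 1.67. Fcmr, an Fc receptor for IgM, stood at 1.00 and 1.28. The markers were thus present in both libraries, 6 of them higher and 6 lower with NDST3, with a median difference of -0.003.

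Ebf1 and Cd22 set cluster 9 apart least. Ebf1, an early B lineage factor that vascular mural cells also express, stood at 3.09 and 3.38 in cluster 9, against a mean of 2.63 in cluster 5. Cd22, an inhibitory receptor, stood at 0.21 and 0.42, against a mean of 0.24 in cluster 3. In the 6-OHDA library alone, 11 of the 12 markers were highest in cluster 9.

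**Figure D1:**
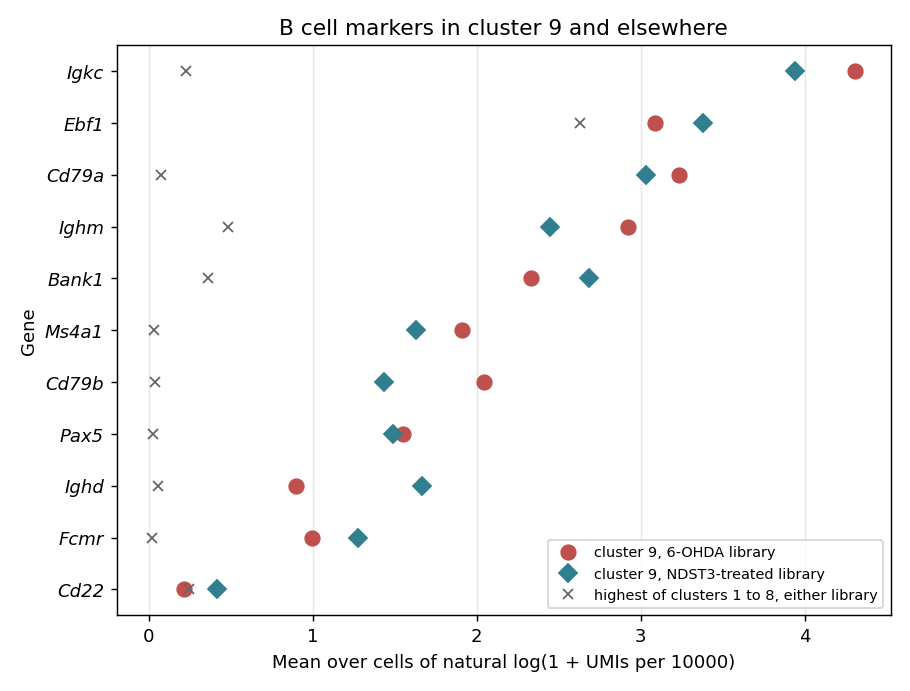
Levels of 11 of the 12 B cell markers (x axis, natural log scale) in cluster 9 of the 6-OHDA library (circles, 38 cells) and the NDST3-treated library (diamonds, 521 cells), with the highest level of any other cluster in either library (crosses). Each point is 1 library with no error bar. Apart from Ebf1 and Cd22, every cross lies far to the left of both cluster 9 points.

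A set of 76 genes, 1.26% of the 6023, led cluster 9 by 0.5 or more over the next cluster. The 20 with the widest lead were Igkc, Cd79a, Ighm, Bank1, Ly6d, Cd74, Iglc2, Ms4a1, Cd79b, Dmxl1, Aff3, Pax5, H2-Aa, Mzb1, H2-Eb1, H2-DMb2, Bach2, H2-Ab1, Ighd and Gm49980. Besides the markers, they hold 5 genes of MHC class II presentation and the B lineage factors Aff3 and Bach2. Ly6d, a surface protein of B lineage cells, led by 1.91. Dmxl1, whose product belongs to a regulator of the vesicular proton pump, led by 1.61. Over all 26624 genes, the profile of cluster 9 was closest to that of cluster 8, with a Pearson r across genes of 0.913, and r with the other clusters lay between 0.688 and 0.876. Genes are not independent replicates.

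Markers of other cells were mostly near 0. No neuron, astrocyte or neutrophil marker (10, 8 and 10 genes) was detected in cluster 9, and 13 of 14 T cell markers were not. The exception was Lck, a T cell kinase, at 0.10 in the 6-OHDA library and 0.16 in the NDST3-treated library. The T cell receptor gene Trac stood at 0.01 and 0.03. Of 8 monocyte and macrophage markers, Lyz2 (lysozyme) alone was detected, at 0.97 and 0.54. Of 9 microglia markers 4 were detected, among them Cx3cr1 at 0.23 and 0.12, while P2ry12 and Tmem119 stayed below 0.1. Of 6 erythroid genes 3 were detected, with Hbb-bs at 0.58 and 0.31. Among the remaining lists, 1 of 12 NK and innate lymphoid markers was detected, 3 of 10 plasmacytoid and 2 of 10 other dendritic cell markers, 2 of 7 oligodendrocyte, 2 of 8 endothelial and 1 of 10 mural and fibroblast markers. Of 10 dopaminergic neuron markers only Nr4a2, which activated lymphocytes also express, was detected (0.20 and 0.49), and Th was listed at 0 in both libraries.

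Some abundant RNAs of other cells were lower in the NDST3-treated library in all 9 clusters. Lyz2 had a difference of -0.43 in cluster 9 and of -0.55 to -0.15 elsewhere. Cst3, a protease inhibitor abundant in microglia, had a difference of -0.54 in cluster 9 and of -0.55 to -0.24 elsewhere. For Spp1 (osteopontin) it was -0.42 in cluster 9 and -0.85 to -0.17 elsewhere. Igkc went the other way outside cluster 9 and was higher with NDST3 in 8 of 8 other clusters, by 0.0473 to 0.185, at 0.0074 to 0.0463 in the 6-OHDA library and 0.0937 to 0.226 in the other. The part of free RNA in these values, and in small differences of other cluster 9 genes elsewhere, was not tested.

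Cluster 9 held a larger share of the NDST3-treated library. Its 38 of 7000 cells are 0.543% of the 6-OHDA library (95% exact Clopper-Pearson interval 0.384% to 0.744%), and its 521 of 7000 are 7.44% of the NDST3-treated library (6.84% to 8.08%). The intervals cover counting error only, and not the spread between mice or dissociations. The ratio of the shares was 13.7. For cluster 4 it was 8.16 (116 and 947 cells), for cluster 8 it was 1.67 (206 and 345 cells), and for the other 6 clusters it lay between 0.682 and 1.29. Clusters 4, 8 and 9 together were 5.14% and 25.9% of cells, and cluster 9 was 10.6% of these in the 6-OHDA library and 28.7% in the NDST3-treated library. The shares add up to the whole library, so a larger share of 1 cluster lowers the others.

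The cell numbers were recovered from the means. For cluster 9, 47 and 38 of 80 tried pairs of values matched at the numbers given, and the next best number gave 0 and 3 matches. The denominators are weaker. In clusters 3 and 6 of both libraries the best number had 8 to 11 matches and the next best 7 or 8, so these sizes, and with them the shares, are less certain. The recovered sizes added up to 7000 in each library, a sum that the search did not use. Their total is below the number of cells that the study's methods give, for a reason that was not tested, so the shares are shares of the cells behind these columns only.

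**Figure D2:**
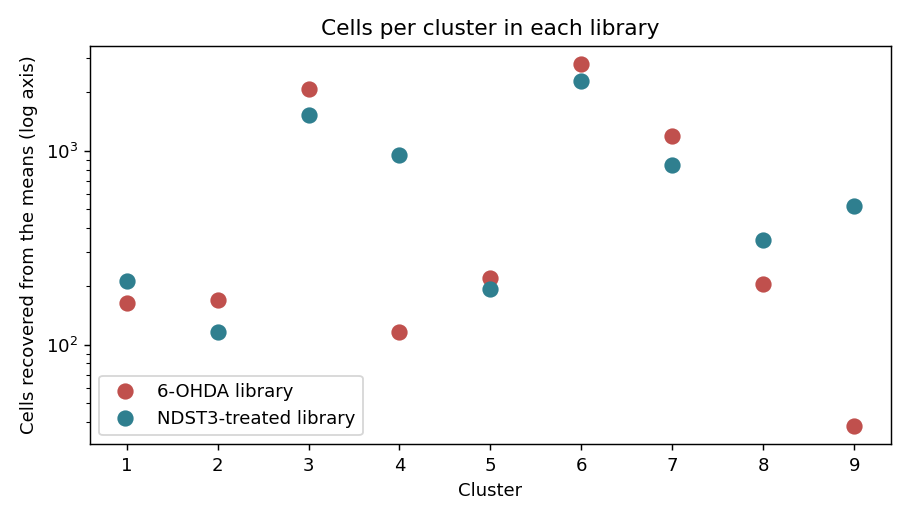
Number of cells recovered from the cluster means (y axis, log scale) for clusters 1 to 9 (x axis) in the 6-OHDA and NDST3-treated libraries, with 1 point per library. Cluster 9 goes from 38 to 521 cells and cluster 4 from 116 to 947.

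Of the 6632 genes above 0.1 in either library of cluster 9, 29 (0.437%) were higher by 0.5 or more with NDST3 and 12 (0.181%) lower. The balance depends on the measure, with 166 higher and 195 lower at a size of 0.25, and 411 and 719 by the log ratio of back-transformed means. The median difference over these genes was -0.02 and its SD 0.128. Of the 6632, 738 passed 0.1 in the 6-OHDA library only and 558 in the NDST3-treated library only, which fixes their direction. Of the 5336 above 0.1 in both, 43.3% were higher. The 6-OHDA values rest on 38 cells, and the spread of the differences was widest in this cluster, against 0.0403 to 0.107 in the others. Cluster 4, with 116 cells in its smaller library, came next with 33 genes past 0.5, and cluster 9 had 41. How much of the spread comes from the small cell number was not tested.

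**Figure D3:**
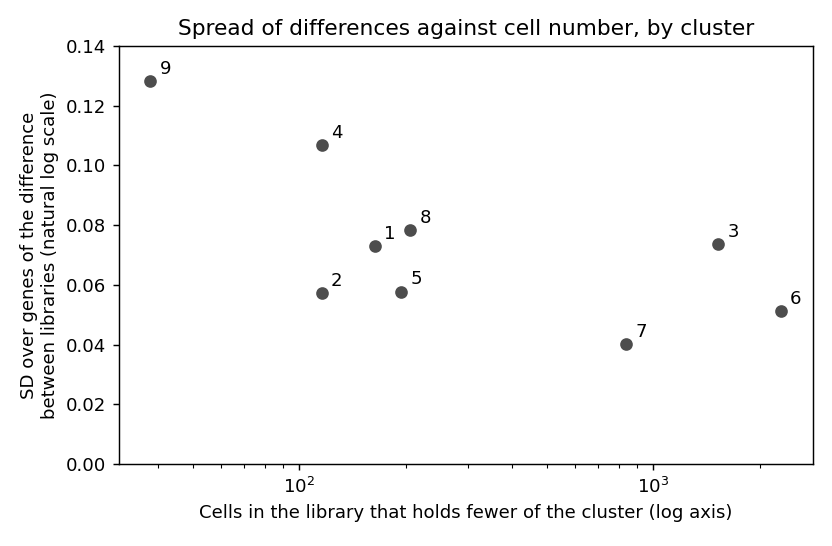
SD over genes of the difference between the libraries (y axis, natural log scale) against the number of cells in the library that holds fewer of the cluster (x axis, log scale), with each point labelled by its cluster. Cluster 9 has the fewest cells, 38, and the widest spread, 0.128.

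The 10 genes with the largest positive difference were H2-Eb1, H2-Aa, Satb1, Ighd, Cd86, Fos, Lncpint, Dmxl1, H2-Ab1 and Abcg1. Satb1, a chromatin organizer of lymphocytes, stood at 1.88 and 2.69. Cd86, a costimulatory ligand for T cells, stood at 1.13 and 1.90. Fos, an immediate early gene that dissociation also induces, stood at 0.70 and 1.43. Abcg1, a cholesterol exporter, stood at 0.76 and 1.42, and its partner Abca1 at 0.61 and 1.27.

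The 10 with the largest negative difference were Iglc1, Ifi30, Pim1, Agbl1, Cd79b, Colec12, Cecr2, Pkig, Cst3 and Vpreb3. Iglc1, a lambda light chain gene, stood at 1.14 and 0.37. Ifi30, a thiol reductase that prepares antigen for class II, stood at 2.45 and 1.75. Pim1, a survival kinase, stood at 1.37 and 0.74. Vpreb3, a gene of immature B cells, stood at 1.07 and 0.54.

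**Figure D4:**
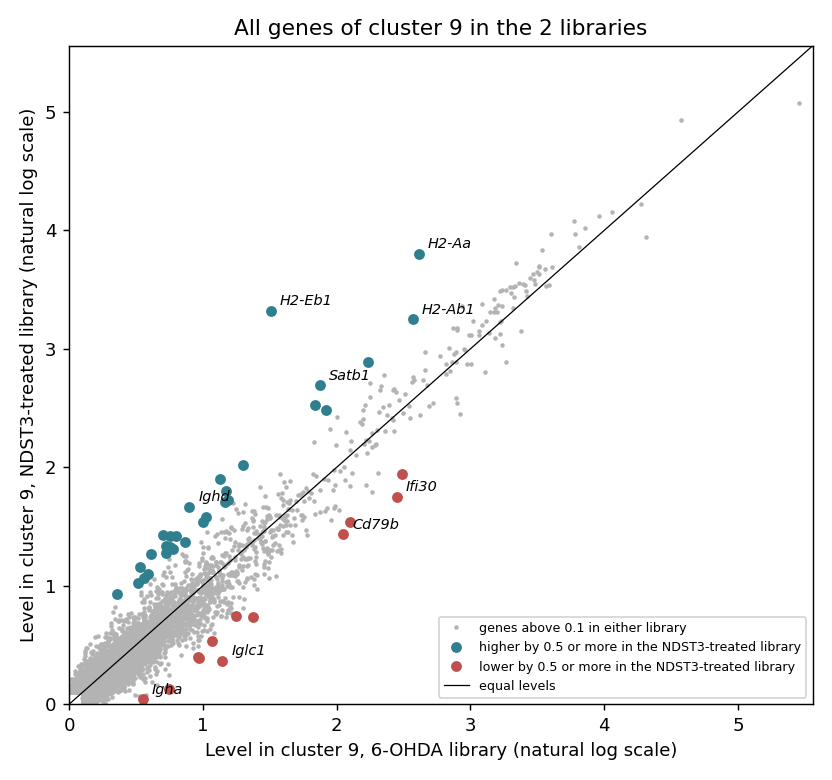
Level of each of 6632 genes in cluster 9 of the 6-OHDA library (x axis) and the NDST3-treated library (y axis), both on the natural log scale, with a line of equal levels. The 29 genes higher and 12 lower by 0.5 or more are coloured, and H2-Eb1 and H2-Aa lie farthest above the line.

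MHC class II presentation genes were higher with NDST3. Of 16 listed, 15 were detected, 12 of them higher, with a median difference of 0.38, where 43.3% of all 6632 genes were higher. By 0.5 or more, 6 were higher and 1 lower. H2-Eb1, a beta chain, stood at 1.51 and 3.32, H2-Aa, an alpha chain, at 2.61 and 3.80, and H2-Ab1 at 2.57 and 3.25. Cd74, the invariant chain that guards the peptide groove, stood at 4.58 and 4.94. The peptide exchange factors H2-DMa (0.87 and 1.25), H2-DMb1 (0.36 and 0.93) and H2-DMb2 (1.25 and 1.65), and their modulators H2-Oa (0.47 and 0.77) and H2-Ob (0.53 and 1.16), were all higher. Ciita, the coactivator that switches on these genes, stood at 0.35 and 0.58. The genes lower with NDST3 were Ifi30, the protease gene Ctss (1.56 and 1.48) and Cd40 (0.50 and 0.32).

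Most genes of the class II list were higher in some other clusters of the NDST3-treated library too, and not in all. H2-Aa, H2-Ab1, H2-Eb1 and Cd74 were higher in each of the other 8 clusters. For H2-Aa the difference there ran from 0.116 in cluster 1 to 1.81 in cluster 3. In clusters 1 to 8 the median difference over all detected genes lay between -0.004 and 0.008. The share of all genes that were higher was computed for clusters 3 and 9 only. In cluster 3, 14 of 15 detected genes of the list were higher, where 55.8% of its 6668 detected genes were, and H2-Aa stood at 0.81 and 2.62. In cluster 6 H2-Aa stood at 0.10 and 0.98, and in cluster 7 at 0.07 and 0.27. Over the list, 10 of 12 detected genes were higher in cluster 6, 11 of 11 in cluster 8 and 7 of 7 in cluster 4, but 5 of 11 in cluster 1, 6 of 9 in cluster 2, 5 of 7 in cluster 5 and 4 of 8 in cluster 7. Cd74 differed by 0.36 in cluster 9, 2.04 in cluster 3 and 1.35 in cluster 6. Summed over the list, the levels of cluster 9 were 20.9 without and 27.6 with NDST3, and those of cluster 3 were 11.6 and 20.5. Cluster 9 had the larger sum in both libraries.

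**Figure D5:**
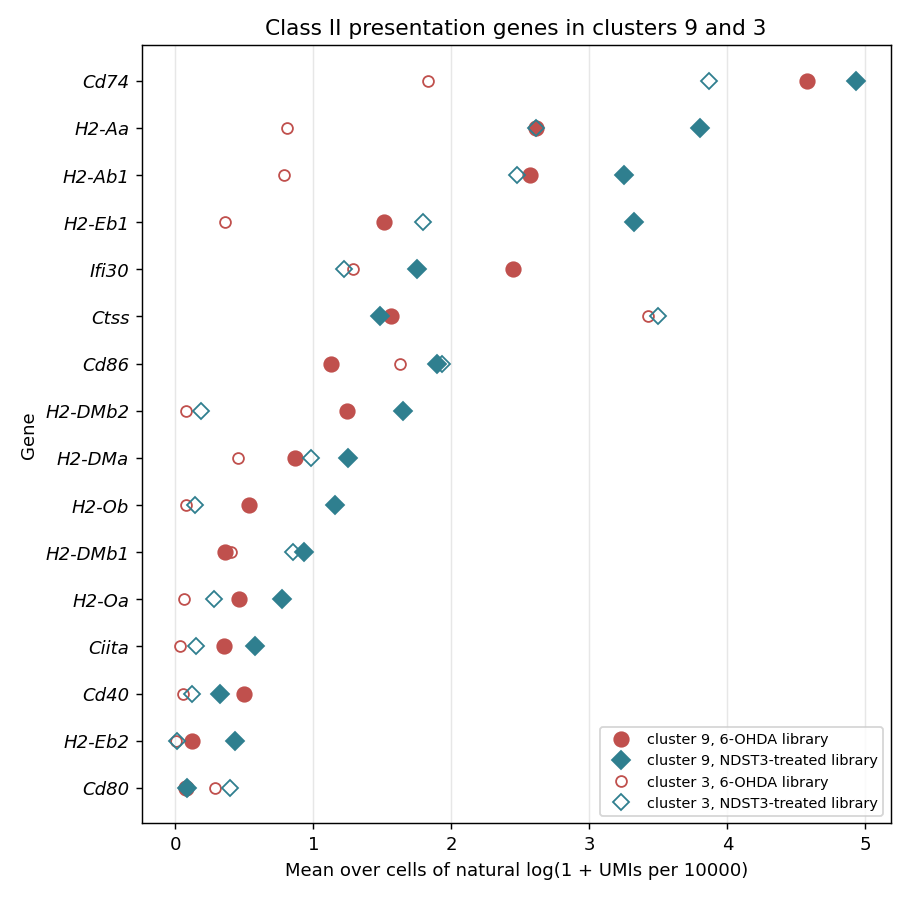
Levels of the 16 listed class II presentation genes (x axis, natural log scale) in cluster 9 (filled) and cluster 3 (open) of the 6-OHDA library (circles) and the NDST3-treated library (diamonds). H2-Aa, H2-Ab1, H2-Eb1 and Cd74 lie farther right in the NDST3-treated library in both clusters.

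The promoters of these genes are shown because most H2 members were higher together. Class II promoters carry a conserved set of boxes, of which the Y box is bound by NF-Y. The letters TGATTGG, which contain the core of that box, were searched on both strands in RefSeq promoters of GRCm38.p6, from 250 bases before to 50 after each start, and were chosen after the sequences had been seen. They occur in 7.82% of all 32851 promoters. Of the 9 H2 class II genes listed, 8 had a promoter in the table, and 7 of them hold the motif. Each line below gives 60 bases with the motif in capitals, 5′ to 3′ on the gene's strand.
H2-Eb1 (chr17:34305761-34305820, plus strand): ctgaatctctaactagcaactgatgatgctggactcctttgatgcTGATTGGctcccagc
H2-Aa (chr17:34287859-34287918, minus strand): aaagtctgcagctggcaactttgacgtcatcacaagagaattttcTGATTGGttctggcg
H2-Eb2 (chr17:34325528-34325587, plus strand): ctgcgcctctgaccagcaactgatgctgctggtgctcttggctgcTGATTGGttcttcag
H2-DMb1 (chr17:34153083-34153142, plus strand): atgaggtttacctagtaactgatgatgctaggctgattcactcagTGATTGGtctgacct
H2-DMb2 (chr17:34145112-34145171, plus strand): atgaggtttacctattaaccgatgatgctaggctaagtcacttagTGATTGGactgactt
H2-Oa (chr17:34092289-34092348, plus strand): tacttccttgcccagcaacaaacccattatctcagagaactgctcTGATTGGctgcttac
H2-Ob (chr17:34238801-34238860, plus strand): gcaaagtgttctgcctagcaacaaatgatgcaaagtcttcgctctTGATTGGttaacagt

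In the lines above the motif starts 45 to 102 bases before the gene's start, at 61 bases for H2-Eb1 and 50 for H2-Aa. H2-DMa, which was higher with NDST3 as well, has no match in the window. A match describes the letters only.

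Immunoglobulin constant genes showed the isotypes. Among heavy chain genes, Ighm and Ighd had the highest UMI levels in cluster 9. Igha, the heavy chain of IgA, stood at 0.55 in the 6-OHDA library and 0.04 in the NDST3-treated library. Multiplied by the number of cells, these levels are sums of 20.9 and 22.8. As 1 cell can add at most the natural log of 10001, each sum needs at least 3 cells, of 38 and of 521. That limit assumes that all UMIs of a cell are Igha, so 3 is a floor and not an estimate. Ighg2b stood at 0.12 and 0.07, and the other IgG genes and Ighe were listed at 0 in the 6-OHDA library and at 0.06 or less in the other. Of the light chain genes, Igkc, Iglc1 and Iglc2 (1.93 and 1.66) were lower with NDST3, while Iglc3 was at 1.01 and 1.00. The lambda genes are near-identical copies, so reads may be split between them.

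Of 127 immunoglobulin variable genes in the table, 112 were highest in cluster 9, and 13 were listed at 0 in cluster 9 of both libraries. Only 2 of the 127 passed 0.1 in either library, so the share given above for genes over 0.1 does not apply to them. The share of all genes at such low levels that were highest in cluster 9 was not computed. In the 6-OHDA library 27 were above 0, and in the NDST3-treated library 109, with 22 shared. The libraries hold 38 and 521 cells, so the 2 counts cannot be compared as diversity. The highest level was 0.11 (Igkv12-44) in the 6-OHDA library and 0.05 (Iglv3) in the NDST3-treated library. In the other clusters no variable gene exceeded 0.009.

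Genes of B cell stages differed in several directions. Of 12 plasma cell markers 10 were detected, but 5 of them passed 0.1 in the 6-OHDA library only and so had to be lower with NDST3. The 5 above 0.1 in both libraries were lower as well, where 56.7% of all such genes were. The detected markers included Jchain, which joins IgA and IgM units (0.28 and 0.08), Irf4 (1.20 and 0.82) and Sdc1 (0.18 and 0.07). Of 14 early B cell genes 4 were detected. Vpreb3 and Cd24a (1.07 and 0.68) were above 0.1 in both libraries and lower with NDST3, while Sox4 (0.32 and 0.06) and Myb (0.20 and 0.03) passed in the 6-OHDA library only. Among the 38 cells of that library, the level of Sdc1 or Myb needs at least 1 cell, that of Jchain at least 2 and that of Vpreb3 at least 5. These floors assume that all UMIs of a cell come from 1 gene. The numbers of cells that carried these RNAs were not estimated. The recombinase gene Rag1 stood at 0.05 in the 6-OHDA library and 0 in the other, and Rag2 was listed at 0 in both.

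Follicular B cell genes were all detected, 1 of the 12 above 0.1 in the NDST3-treated library only. Of the 11 above 0.1 in both, 8 were higher, against 43.3% of all such genes. The median over all 12 was 0.09. Besides Ighd and Fcmr they included Cxcr5, a receptor that guides cells to follicles (0.86 and 1.04), and the tetraspanin gene Cd37 (1.84 and 1.93). Fcer2a, which encodes CD23, stood at 0.73 and 0.63. Of 11 germinal centre genes 4 were detected, with Bcl6 at 0.15 and 0.34. Among marginal zone and B1 genes 6 were detected, 2 of them in the 6-OHDA library only, and 3 of the 4 above 0.1 in both were lower, against 56.7% of all such genes, with Mzb1 at 1.52 and 1.41.

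The counts in this paragraph are read against the 43.3% of all genes above 0.1 in both libraries that were higher. Receptor signalling genes were balanced, with 12 of 26 higher and a median of -0.02. Their members included Blk (1.33 and 1.06), Btk (0.77 and 0.92), Malt1 (0.84 and 1.27) and Cr2 (0.30 and 0.36). B lineage transcription factors were balanced too, with 10 of 22 higher and a median of -0.02. Mef2c stood at 2.23 and 2.89, Bach2 at 2.82 and 2.79, and Zeb2 at 1.09 and 0.60. Of 15 homing receptors detected, 1 passed 0.1 in the 6-OHDA library only, and 9 of the 14 above 0.1 in both were higher. Gpr183, an oxysterol receptor, stood at 0.80 and 1.42, Ccr6 at 0.34 and 0.72, and Ccr7 at 1.48 and 1.59. Of 12 survival genes 10 were above 0.1 in both libraries and 5 of these were higher, and Tnfrsf13c, the receptor for BAFF, stood at 1.10 and 0.78. Of 7 cytokine genes detected 5 were above 0.1 in both and 1 of these was higher. Their median over all 7 was -0.04, and Tgfb1 stood at 1.38 and 1.01. Of 13 NF-kB genes 12 were above 0.1 in both and 8 of these were higher. The median over all 13 was 0.04, and the inhibitor Nfkbia stood at 1.49 and 1.07.

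Broad gene groups are read against the 43.3% of all detected genes that were higher with NDST3. Of 82 ribosomal protein genes 80 were detected and 71 of these were higher, with a median of 0.14. MHC class I genes were higher in 10 of 11, with a median of 0.11 and the largest difference in H2-T23 (0.51 and 1.03). Mitochondrially encoded genes were higher in 11 of 13, with a median of 0.11 and 1 that passed 0.1 in the 6-OHDA library only. Of 20 immediate early genes 1 passed in the NDST3-treated library only. Of the 19 above 0.1 in both 14 were higher, and the median over all 20 was 0.15. Heat shock genes were higher in 4 of 12, with a median of -0.05 and 2 that passed in the 6-OHDA library only. Of 17 interferon-stimulated genes listed 5 were detected, with a median of 0.01, and Ifi27l2a stood at 0.72 and 0.44.

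Cell cycle genes were low, with 7 of 18 detected, Mki67 at 0.04 and 0.02 and Top2a at 0.11 and 0.10. Of 18 DNA repair genes detected 9 were higher, with a median of -0.003. Of the 18, 4 passed 0.1 in the 6-OHDA library only and 2 in the NDST3-treated library only, which fixes their direction. Of the 12 above 0.1 in both, 7 were higher, against 43.3% of all such genes. Among the genes the study names for this cluster, Fam107b stood at 1.83 and 2.22, Ncoa7 at 0.08 and 0.22, Xrcc6 at 0.17 and 0.08, Cdc25a at 0.07 and 0.07, and mouse Ndst3 at 0.02 and 0.004. The study chose these genes on the same libraries, so they are not independent evidence of a direction. Human NDST3 from the vector was not analysed here.

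In bulk RNA-seq of brain tissue, 7 of the 12 B cell markers were listed. Igkc was counted 43 and 47 times in sham, 253 times after 6-OHDA alone, and 77 and 175 times with NDST3. Scaled to the total count (CPM), these are 0.843 and 0.666, then 4.93, then 1.28 and 2.98. Ighm had 8.08 and 5.93 CPM in sham, 16.8 in 6-OHDA, and 6.27 and 8.56 with NDST3. For both genes the single 6-OHDA library was above the other 4. Cd79a had 26 and 21 counts in sham, 33 in 6-OHDA, and 3 and 18 with NDST3, and Bank1 had 51 to 75 counts in all 5. Cd22 had 0.312 to 1.92 CPM in sham, 31.2 in 6-OHDA, and 8.86 and 15.8 with NDST3. In bulk tissue, fewer cells of a type and less RNA per cell cannot be told apart, and other brain cells express Cd22, Pax5 and Ebf1. Ighm and Bank1 were not confined to cluster 9 either. In cluster 6, which held the most recovered cells, Ighm stood at 0.44 and 0.48 in the 6-OHDA and NDST3-treated single-cell libraries. Bank1 stood there at 0.35 and 0.36. The part of such cells in the bulk values was not tested. Pax5 and Ebf1 were lowest in the 6-OHDA library. Pax5 had 22.7 and 19.0 CPM in sham, 2.61 in 6-OHDA, and 18.4 and 6.49 with NDST3, and Ebf1 had 21.2 and 22.7, then 10.1, then 17.8 and 15.6. With 1 library in the 6-OHDA group no test was made here for single markers.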

How the data were processed

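Per the study's methods, dissociated brain cells were run on 10x Genomics 3′ chemistry, aligned to mm10 with Cell Ranger and handled in Seurat. Cells were filtered on the number of genes and the mitochondrial share, log-normalized and split by K-clustering into 9 groups. Doublets were addressed by the gene limit. The authors deposited 1 mean per gene, cluster and library on a natural log scale (log of 1 plus UMIs per 10000). They also deposited a read count per gene for each RNA-seq library. Total counts there ranged from 51003699 to 70533326, and depth per cell is unknown. CPM were computed from the counts. CUT&RUN and ATAC-seq tables were not used. Cell barcodes were not analysed here, so barcodes that libraries share were not counted.

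Of 26650 rows, 26 with date-like symbols were left out. The differences, leads and medians were computed in Python 3.11.15 with numpy and pandas, and no test was made. The members, lists and rules were chosen with earlier results of these data known. The genes named are the 20 with the widest lead, the 10 largest differences each way, the B cell markers, members of fixed lists (the highest, the most different and those near 0), and genes the study names. A few others (Abca1, Spp1, Hbb-bs, Blk, Btk, Cr2 and the like) were named after their values were seen. Results for some of the genes in the lists are not reported here, though the counts include them.

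Cell numbers were recovered from genes read in 1 cell only: their means for 1, 2 and 3 UMIs fix the number of cells. Numbers from 5 to 12000 were tried, with a tolerance of 1.5e-09. The method was devised after the values were seen and was run on the deposited means before it was simulated. Clusters of known size were then simulated, with 10 draws per size. In a first simulation, without variation between cells, the number was recovered in all 10 draws at 40 and at 120 cells, but in only 3 of 10 at 500 cells. A second simulation, with gamma-distributed variation of shape 0.1, was written because the first had failed. Its shape was picked by hand and not fitted to the data, and it gave 10, 10 and 9 of 10. The method thus relies on genes with several UMIs in 1 cell, and 29 of 30 is not an independent success rate. Where a wrong number won a draw in either simulation, it had at most 4 matches. Wrong numbers that came next to a right one were not summarized.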

Additional observations from a re-analysis of the deposited data

Results flagged for a closer look

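Both results below were picked because a gene differed by 0.5 or more in opposite directions in cluster 9 and in cluster 4. The difference between the clusters was not tested, since each value comes from 1 library per group. Satb1 was higher by 0.82 in cluster 9 (1.88 and 2.69) and had a difference of -0.52 in cluster 4 (1.62 and 1.10). Gimap6, a GTPase of lymphocytes, was higher by 0.54 in cluster 9 (1.00 and 1.54) and had a difference of -0.75 in cluster 4 (1.45 and 0.70). The 6-OHDA levels rest on 38 cells in cluster 9 and 116 in cluster 4.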

How the results depend on the processing

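Of 60 values recomputed under other settings, 46 stayed within their limits, 14 moved and 0 changed sign past the limit for a called median. The 76 leading genes became 284 over the mean of the other clusters and 25 at a margin of 1. The 29 higher and 12 lower genes became 166 and 195 at a size of 0.25, 2 and 0 at a size of 1, and 411 and 719 by the log ratio of back-transformed means, which kept all 29 and all 12. With genes above 0.5 only, the median difference became -0.28 for plasma cell markers, 0.15 for homing receptors, -0.29 for survival genes, -0.27 for B cell cytokines, 0.0697 for heat shock genes (from -0.05) and 0.69 for the genes the study names; the cause was not tested beyond the smaller number of genes. The cell numbers of cluster 9 were the same with a tolerance of 1e-09 and with 80 low values, 2 settings chosen after seeing the data. No paired analysis was possible because each group is 1 library and no result comes from a test, and no replicate could be left out. With 38 cells in the 6-OHDA library, single cells can set the level of a gene read in few of them.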
